A study of Mus musculus with 12 samples.

Results

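Cholesterol synthesis and SREBP target genes were followed in the caudate putamen of adult mice exposed to ethanol before birth. The set was named as 8 genes: Hmgcs1, Idi1, Fdps, Fdft1, Sqle, Cyp51, Dhcr7 and Insig1. Its members were all array probes whose single gene symbol in the platform annotation is one of these. That gave 12 of the 45281 probes, for 6 of the 8 genes: 4 probes for Insig1, 3 for Sqle, 2 for Fdps and 1 each for Idi1, Cyp51 and Dhcr7. Hmgcs1 and Fdft1 had no probe under that symbol, and their expression was not analysed here. Testing was limited to probes detected (p under 0.05) on 6 or more arrays, which left 10 of the 12 probes here and 20296 (44.8%) on the whole array.

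Each of 12 RNA samples was measured on its own Illumina bead array, on which a fluorescent intensity reports the amount of a transcript. In the 6 ethanol samples the dams had drunk 10% ethanol by choice between 0.5 and 8.5 days after mating, which spans the time from fertilisation to early organ formation, and the other 6 samples were controls. Every sample was caudate putamen, a forebrain region of movement and habit, from male C57BL/6J mice aged 12 weeks. How much ethanol each dam drank is not stated. The titles place 3 ethanol and 3 control arrays on each of 2 chips, here chip 1 (replicates 1 to 3 of both groups) and chip 2 (replicates 4 to 6). Whether mice or litters were shared between samples is not stated, and p-values therefore speak only to the spread among these 12 samples. The protocol field of the control samples repeats the ethanol text, and the groups here follow the treatment label.

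Cholesterol is built from acetyl-CoA through the mevalonate pathway, in which isoprenoid units are joined to farnesyl diphosphate, to squalene and then to the sterol ring. The transcription factor SREBP-2 raises the genes of this pathway together when sterols in the endoplasmic reticulum are low, by binding sterol regulatory elements in their promoters. INSIG proteins hold SREBP in the membrane when sterols are high, and Insig1 is itself an SREBP target. The brain makes its own cholesterol, since lipoproteins do not cross the blood-brain barrier, and much of it goes into myelin.

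The promoters are shown because SREBP is known to act there with partner factors, and they let the letters of these genes be set side by side. RefSeq promoters (GRCm38.p6) were at hand for 5 of the 8 genes: Hmgcs1, Insig1, Idi1, Cyp51 and Dhcr7, the last with 3 start sites. No sequence is printed for Sqle, Fdps and Fdft1. The lines give the 150 bases before the start site, 5′ to 3′ on the gene's strand. Capitals mark matches, on either strand, to the letters of 4 motifs. These were TCACNCCAC for the sterol regulatory element, where SREBP binds. For the E-box, a site of basic helix-loop-helix factors such as SREBP itself, the letters were CACGTG. The CCAAT box, bound by the SREBP partner NF-Y, was searched as the letters CCAAT. For the GC box, bound by the partner Sp1, they were GGGCGG.
Hmgcs1, chr13:119690201-119690350, plus strand: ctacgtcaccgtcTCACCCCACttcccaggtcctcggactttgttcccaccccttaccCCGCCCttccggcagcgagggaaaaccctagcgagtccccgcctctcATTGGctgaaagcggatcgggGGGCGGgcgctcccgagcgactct
Insig1, chr5:28071262-28071411, plus strand: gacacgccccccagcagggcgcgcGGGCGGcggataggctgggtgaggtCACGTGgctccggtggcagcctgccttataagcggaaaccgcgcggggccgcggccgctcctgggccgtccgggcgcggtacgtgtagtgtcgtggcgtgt
Idi1, chr13:8885456-8885605, plus strand: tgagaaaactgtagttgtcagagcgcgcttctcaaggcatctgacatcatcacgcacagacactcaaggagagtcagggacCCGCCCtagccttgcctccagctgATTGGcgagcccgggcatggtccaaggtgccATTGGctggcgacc
Cyp51, chr5:4104698-4104847, minus strand: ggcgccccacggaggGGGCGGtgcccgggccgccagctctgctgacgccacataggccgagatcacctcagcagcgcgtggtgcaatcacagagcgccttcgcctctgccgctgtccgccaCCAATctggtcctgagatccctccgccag

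The searched window ran from 250 bases before to 50 after each start. The sterol regulatory element letters were found once, in Hmgcs1, 137 bases before the start, and 1.24% of the 32851 RefSeq promoters hold them. The windows of Insig1, Idi1 and Cyp51 and the 3 of Dhcr7 had 0 matches to these exact letters. An E-box lay 101 bases before the Insig1 start and 164 before 1 of the Dhcr7 starts (7.15% of promoters hold one). Hmgcs1 had 4 CCAAT boxes, Idi1 2, at 45 and 14 bases, Insig1 1 and Cyp51 1, at 29 bases, and another start of Dhcr7 had 2 (37.4% of promoters hold one). GC boxes were present at Hmgcs1, Insig1, Idi1, Cyp51 and 2 of the Dhcr7 starts (35.7% of promoters hold one). A match is a description of the letters, and nothing was measured here on binding.

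Between 19452 and 21949 probes were detected per array. The raw median intensity was 149.5 to 153.2 on the 6 arrays of chip 1 and 136.1 to 144.5 on the 6 of chip 2. The defining genes of striatal projection neurons were bright on all 12 arrays: log2 intensity was 12.29 to 12.91 for the dopamine receptor Drd1, 10.12 to 10.94 for Drd2 and 14.43 to 15.09 for Ppp1r1b. The thalamic marker Slc17a6 was also detected on 12 arrays, at 5.47 to 8.62. The thalamus marker list averaged 8.63 in ethanol 3 and 8.71 in ethanol 4, 7.68 to 7.80 in the other ethanol arrays and 7.77 to 8.11 in the controls.

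No cholesterol synthesis or SREBP target probe passed the test between ethanol and control. In limma's test with Benjamini-Hochberg adjustment over all 20296 probes, 0 of the 10 tested probes passed an adjusted p of 0.05 (background 0%), with adjusted p between 0.858 and 0.984. At an unadjusted p under 0.05 the count was also 0 of 10, where the background was 5.79% of all tested probes. The ethanol and control arrays did not separate fully for any of the 10 probes, against 0.266% of all probes. The estimates lay on both sides of 0, with 4 probes above and 6 below. The 95% intervals of all 10 probes lay within a 2-fold change either way and 9 within 1.5-fold. The lowest bound was a fold of 0.623 (Insig1 probe 3) and the highest bound was 1.495 (Fdps probe 2). In bulk tissue such as this, fewer cells of a type and less RNA per cell cannot be told apart. Values that follow are log2 intensities after background correction and quantile normalization, and differences are log2 ethanol minus control. Probes of a gene are numbered from the brightest, and levels of different probes cannot be set against each other.

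**Figure D1:**
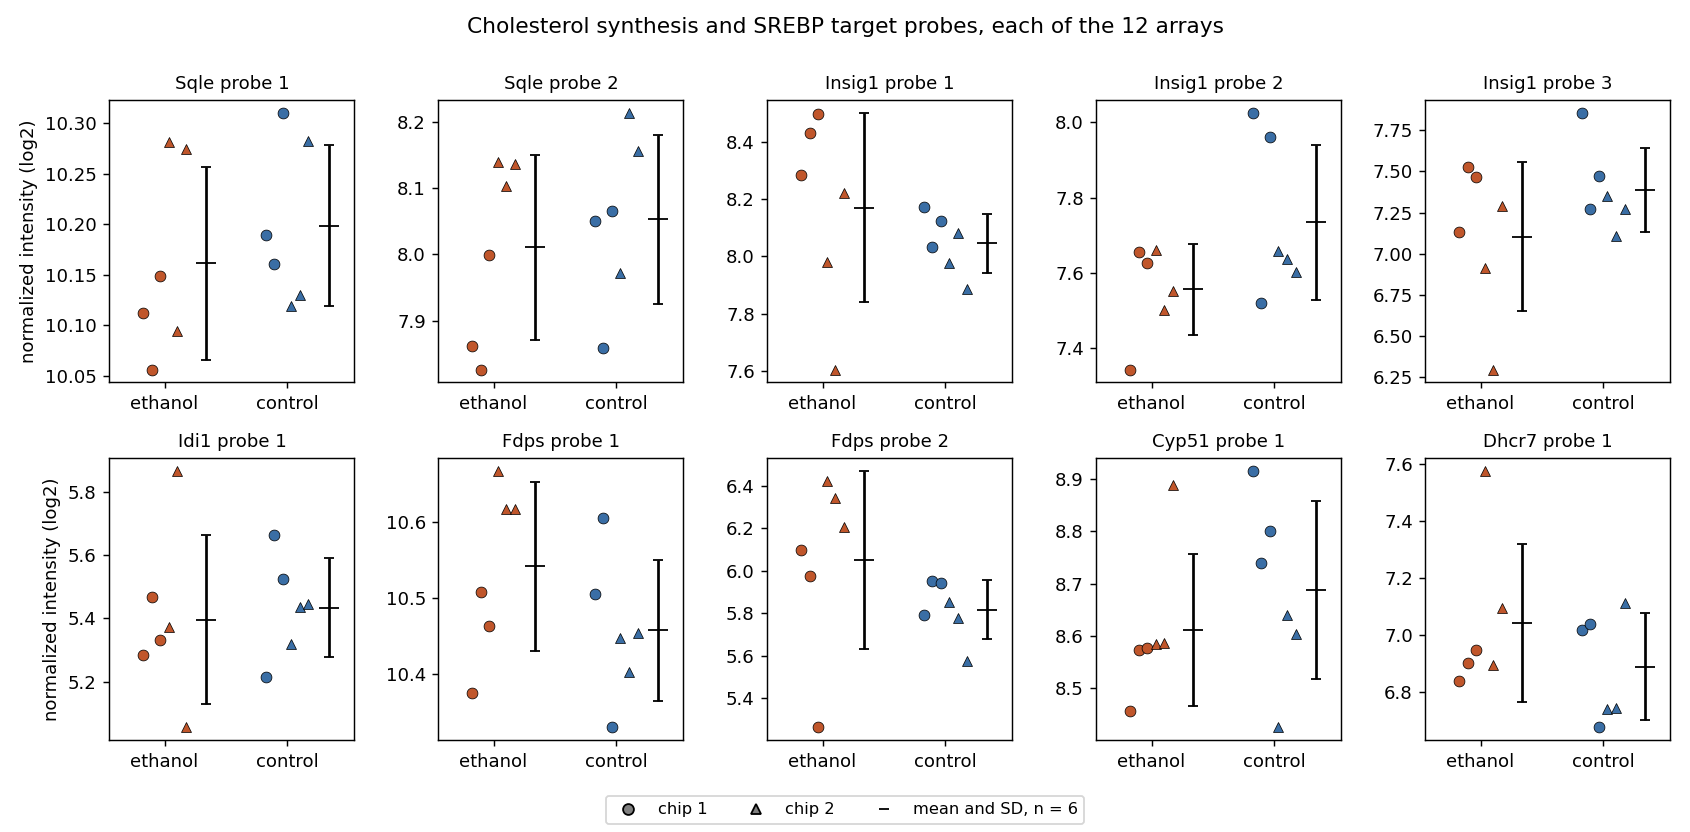
Log2 intensity of each of the 10 tested probes on every array (y axis, log2, each panel with its own range not starting at 0), ethanol left of control, 6 arrays per group. Ethanol and control points overlap in every panel.

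The enzymes of the isoprenoid stage were measured by Idi1 and Fdps. Idi1, the isomerase that makes dimethylallyl diphosphate, was close to the detection limit, being detected on 3 ethanol and 5 control arrays. Its log2 intensity was 5.06 at the lowest, 5.35 at the median and 5.87 at the highest in ethanol arrays, against 5.21, 5.44 and 5.67 in control arrays. The control arrays lay inside the ethanol range. The difference was -0.04 (SE 0.12, adjusted p = 0.984 in limma's test), and its sign turned without ethanol 6 (0.03) or control 2 (0.01).

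Fdps, farnesyl diphosphate synthase, joins isoprenoid units into the last compound common to cholesterol and the other branches. Its probe 1 had 10.37, 10.56 and 10.67 (lowest, median, highest) in ethanol arrays, against 10.33, 10.45 and 10.60 in control arrays. The groups overlapped, with 3 ethanol arrays above the highest control. The means were 10.54 ± 0.11 in ethanol arrays and 10.46 ± 0.09 in control arrays (SD, n = 6 each), a difference of 0.08 (SE 0.08, 95% interval -0.08 to 0.25, limma's adjusted p = 0.916).

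Fdps probe 2, a dim probe, had 5.26, 6.15 and 6.42 in ethanol arrays, against 5.58, 5.82 and 5.95 in control arrays. Here 5 ethanol arrays lay above the highest control and ethanol 3 lay below the lowest control. The difference was 0.24 (SE 0.16, interval -0.11 to 0.58, limma's adjusted p = 0.871). Without ethanol 3 it was 0.39, with an unadjusted p of 0.00169 and a limma adjusted p of 0.743. Without both ethanol 3 and ethanol 4 it was 0.34, with an adjusted p of 0.891. Across the 12 arrays, after the group means were subtracted, the Fdps probes correlated at r = 0.45 (rho 0.55). Ethanol 3 also had the highest oligodendrocyte list level of its group (11.81) and the lowest projection neuron list level (12.46), and the part of either was not tested. Ethanol 3 was thus a single array that moved the estimate of the dim probe by more than 1.5 times and did not bring it past the threshold either way.

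The squalene and sterol-ring enzymes were measured by Sqle, Cyp51 and Dhcr7. Sqle, squalene epoxidase, makes the oxygenated squalene that is folded into the ring and is a rate-limiting step of the later pathway. Sqle probe 1 had 10.06, 10.13 and 10.28 in ethanol arrays, against 10.12, 10.18 and 10.31 in control arrays. The groups overlapped, with 3 ethanol arrays below the lowest control. The difference was -0.04 (SE 0.07, interval -0.19 to 0.12, limma's adjusted p = 0.971). Its spread within groups was among the smallest on the array, with 3.77% of tested probes below it. Sqle probe 2 gave the same size, -0.04 (SE 0.09, adjusted p = 0.975), over 7.83, 8.05 and 8.14 in ethanol arrays and 7.86, 8.06 and 8.21 in control arrays. The interval of probe 2 ran from -0.23 to 0.14. Sqle probe 3 was detected on 0 arrays (4.50 to 4.72 in ethanol and 4.56 to 4.92 in control arrays) and was not tested.

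Cyp51, the lanosterol demethylase, had 8.46, 8.58 and 8.89 in ethanol arrays, against 8.43, 8.69 and 8.92 in control arrays. Ethanol 6, at 8.89, stood above the other ethanol arrays, which lay between 8.46 and 8.59. The difference was -0.08 (SE 0.10, interval -0.28 to 0.13, limma's adjusted p = 0.952). It was -0.13 without ethanol 6 or without control 4, and -0.03 without control 1.

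Dhcr7, which makes the last step of one route to cholesterol by reducing 7-dehydrocholesterol, had 6.84, 6.92 and 7.58 in ethanol arrays, against 6.68, 6.88 and 7.11 in control arrays. Ethanol 4 gave the 7.58, and the other 5 ethanol arrays (6.84 to 7.09) lay inside the control range. The difference was 0.15 (SE 0.13, interval -0.12 to 0.43, limma's adjusted p = 0.903), and it was 0.05 without ethanol 4 and 0.04 without ethanol 3 and ethanol 4. Ethanol 4 also had the highest thalamus list level and the lowest oligodendrocyte list level of its group, and the part of either in the Dhcr7 value was not tested.

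Insig1, the sterol-regulated retention protein, had probes on both sides of 0. Probe 1 had 7.61, 8.25 and 8.50 in ethanol arrays, against 7.89, 8.06 and 8.17 in control arrays. Here 4 ethanol arrays lay above the highest control and ethanol 5 lay below the lowest. The difference was 0.12 (SE 0.13, limma's adjusted p = 0.936), and single arrays moved it either way. Without ethanol 5 it was 0.24 with an unadjusted p of 0.0331 and an adjusted p of 0.922, while it was 0.06 without ethanol 3 and 0.07 without ethanol 2.

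Insig1 probes 2 and 3 pointed the other way. Probe 2 had 7.34, 7.59 and 7.66 in ethanol arrays, against 7.52, 7.65 and 8.02 in control arrays, a difference of -0.18 (SE 0.10, limma's adjusted p = 0.858). Probe 3 had 6.30, 7.21 and 7.53 in ethanol arrays, against 7.11, 7.31 and 7.85 in control arrays, a difference of -0.28 (SE 0.19, adjusted p = 0.867). Ethanol 5 gave the 6.30, and without it the probe 3 difference was -0.12. Both groups overlapped on each probe. Probe 4 was detected on 0 arrays (4.62 to 5.05 in ethanol and 4.59 to 4.98 in control arrays) and was not tested.

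The probes of Insig1 nonetheless tracked each other in part. With the group means subtracted, probes 1 and 3 correlated at r = 0.90 (rho 0.87) over 12 arrays, probes 2 and 3 at 0.49 and probes 1 and 2 at 0.28. The intensity of probe 1 minus that of probe 3 within the same array was 0.90, 1.05 and 1.31 (lowest, median, highest) in ethanol arrays, against 0.32, 0.64 and 0.97 in control arrays, with 4 of 6 ethanol arrays above the highest control. This pair was picked after its values were seen, and no share over other genes is given. For probe 1 minus probe 2 the count was also 4. Its lowest ethanol value (0.11) was under its lowest control value (0.15). For probe 3 minus probe 2 the count was 2. Over the 4242 genes with at least 2 tested probes, the median correlation between the 2 brightest probes was 0.33 and their differences had opposite signs in 36.9%, so opposite signs between probes of a gene were common on this array. Where in the transcripts these probes lie was not analysed here.

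The ethanol difference was next compared between the chips, since each chip holds 3 ethanol and 3 control arrays. Of all 20296 probes, 0 passed an adjusted p of 0.05 for a group by chip interaction in limma (background 0%), and 9.98% had an unadjusted p under 0.05. Of the 10 tested probes, 0 passed after adjustment and 2 had an unadjusted p under 0.05: Fdps probe 2 and Cyp51. For Fdps probe 2 the difference was -0.12 on chip 1 and 0.59 on chip 2 (interaction 0.71, SE 0.26, unadjusted p = 0.0175, limma's adjusted p = 0.427). The interaction was 0.45 without ethanol 3, and 0.59 with an unadjusted p of 0.0552 when arrays were scaled by their medians. For Cyp51 it was -0.28 on chip 1 and 0.13 on chip 2 (interaction 0.41, SE 0.16, unadjusted p = 0.0258, adjusted p = 0.439), and with median scaling the interaction was 0.22 (unadjusted p = 0.206).

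With quantile normalization the sign of the difference turned between the chips for 8 of the 10 probes, the exceptions being Insig1 probes 2 and 3, which lay below 0 on both chips. Chip 1 gave -0.29 and chip 2 gave -0.06 for Insig1 probe 2, and the chips gave -0.16 and -0.41 for Insig1 probe 3. The share of all tested probes that turned sign was not computed, so the 8 of 10 has no background. Some values lay close to 0, such as Dhcr7 on chip 1 (-0.01) and Sqle probe 2 on chip 2 (0.01). All 7 tested probes of the pathway enzymes, with 2 each for Sqle and Fdps, lay below 0 on chip 1 and above 0 on chip 2. Insig1 probe 1 ran the other way (0.29 and -0.04). This grouping was seen in the values and not tested, and it moved with the scaling. With median scaling, looked at by chip after the data were seen, 5 of the 7 enzyme probes lay below 0 on chip 1, 5 lay above 0 on chip 2, and 4 of the 10 probes turned sign. The median over all tested probes was then 0.06 on chip 1 and -0.10 on chip 2, against -0.01 and 0.01 with quantile normalization. With cyclic loess the counts were again 7, 7 and 8. The median over the brightest probe of the 6 genes was -0.07 on chip 1 and 0.08 on chip 2 with quantile normalization. For the 10 other cholesterol enzymes tested, listed further below, the median was 0.0065 on both chips. With median scaling Fdps probe 1 (0.04) and Dhcr7 (0.05) joined Insig1 probe 1 (0.37) above 0 on chip 1. Sqle probe 1 (-0.07) then lay below 0 on chip 2. Medians of the 6 genes and of the lists by chip were taken with quantile normalization only. On that scale oligodendrocyte markers ran the other way from the median of the 6 genes. Their median difference was 0.33 on chip 1 and -0.59 on chip 2 over 15 genes. So did vascular (0.215 and -0.12), astrocyte (0.16 and -0.09) and microglia markers (0.07 and -0.09). The LXR target (0.08 and -0.13) and fatty acid lists (0.10 and -0.06) did too. Thalamus markers and other sterol-type targets were above 0 on both chips, and projection neuron markers below 0 on both. The SREBP processing list gave -0.01 and 0.03. The part of any list in the chip difference was not tested.

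**Figure D2:**
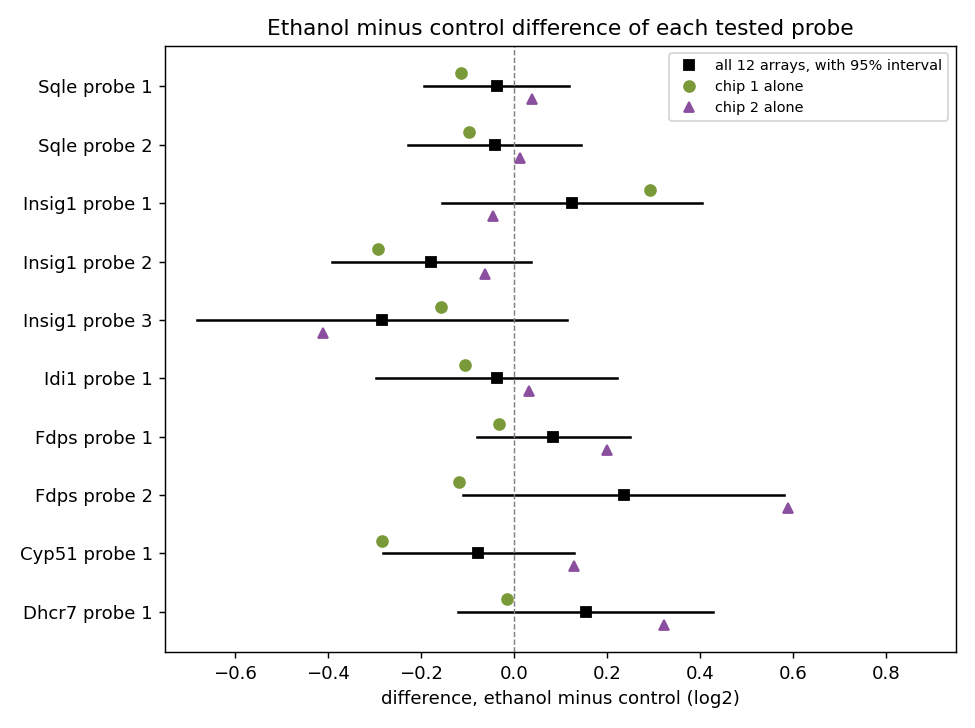
Difference between ethanol and control (x axis, log2 ethanol minus control) of the 10 tested probes, as squares with 95% intervals over all 12 arrays and as points for chip 1 and chip 2 alone. All 10 intervals cover 0, and 8 probes change sign between the chips (4 with median scaling). The share over all tested probes was not computed.

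As SREBP-2 targets are known to move together, the levels of the 6 genes were set against each other across arrays on the brightest probe of each, with the group means subtracted. These correlations describe 12 arrays that share tissue, chips and normalization. Over the 15 pairs the median r was 0.16 and 8 pairs were positive (53.3%), against a median of 0.0002 and 50% positive over all gene pairs. The highest was Fdps with Dhcr7, at 0.70 (rho 0.70), with 0.94 on chip 1, 0.59 on chip 2 and 0.68 without the 2 arrays farthest from the median. Sqle with Dhcr7 gave 0.56, but -0.19 on chip 1 and 0.84 on chip 2. Sqle with Cyp51 gave 0.48, with 0.49 on chip 1 and 0.58 on chip 2. Insig1 went against Fdps (-0.48) and against Idi1 (-0.58, or -0.08 without the 2 farthest arrays). Of the 15 pairs 5 were positive on both chips, a count that was not made for all gene pairs. Over the 12 arrays 10% of all gene pairs had an r above 0.46. Fdps, Sqle, Cyp51 and Dhcr7 were all positive with each other over the 12 arrays, at 0.17 to 0.70. The lowest of these, Sqle with Fdps, was -0.22 without the 2 farthest arrays. Insig1 and Idi1 were each negative with 3 of these 4 enzymes. Without the 2 farthest arrays Idi1 was at 0.10 with Cyp51, 0.05 with Dhcr7 and -0.08 with Sqle. Insig1 was then at 0.01 with Sqle, -0.43 with Fdps and -0.67 with Dhcr7. Idi1 was also close to the detection limit, and this split of the genes was read from these same correlations.

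**Figure D3:**
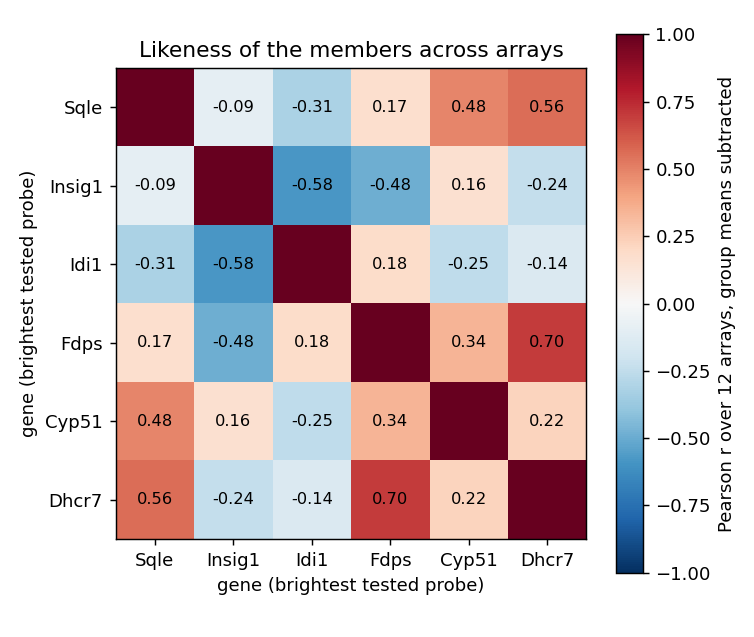
Pearson correlation of each pair of the 6 genes across 12 arrays (colour and printed value), brightest tested probe, group means subtracted. Fdps and Dhcr7 stand highest at 0.70, and Insig1 with Idi1 lowest at -0.58.

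The genes whose levels were most like those of the 6 genes, by mean r over 12 arrays, were Dync1i1 (0.42), Olfr166 (0.41), Becn1 (0.40), Usp29 (0.39), Mamstr (0.39), Mtif2 (0.38), Gspt2 (0.38), Slc35c2 (0.38), Dcun1d4 (0.38) and Tgfb1 (0.38). Each was positive with 4 or 5 of the 6. The least alike were Zfp457 (-0.41), Errfi1 (-0.41) and 3300002A11Rik (-0.42). Over the other 10927 genes the median was 0.0064, with 10% above 0.20 and 10% below -0.21. The 10 other cholesterol enzymes tested had a median of 0.06, and none of them was among the 10 most alike. Oligodendrocyte markers had the lowest median of the lists, -0.28 over 15 genes.

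The rest of the sterol system was described by 5 lists, read on the brightest tested probe of each gene. Of all 10933 genes with a tested probe, 52.3% lay above 0 and the median difference was 0.0062. In limma's test with Benjamini-Hochberg adjustment 0 genes of the 5 lists passed in either direction. An unadjusted p under 0.05 was met by 576 of the 10933 genes. It was met by 1 of 8 SREBP processing genes, 1 of 16 fatty acid genes, 1 of 13 LXR list genes and 0 genes of the remaining lists. The genes named below were picked for the smallest unadjusted p of each list. The other mevalonate and cholesterol enzymes had 10 of 17 genes tested, 6 above 0 and 4 below, median 0.03. The largest estimates were opposite in sign, -0.25 for Sc5d (SE 0.13, adjusted p = 0.854), the sterol C5 desaturase before Dhcr7, and 0.25 for Tm7sf2 (SE 0.15, adjusted p = 0.859), a sterol C14 reductase. Lss, which closes the sterol ring, was at -0.11 (SE 0.10, adjusted p = 0.907), or -0.03 without ethanol 6, while its other probe was at 0.06. Sc5d was at -0.39 without ethanol 3 and ethanol 4 (unadjusted p = 0.0107, adjusted p = 0.891), and Tm7sf2 at 0.16 without control 5.

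The genes that hold, move and cut SREBP had 8 of 11 tested, 3 above 0 and 5 below, median -0.06. Ufd1, part of the complex that draws ubiquitinated proteins from the membrane, had 8.82, 8.93 and 9.05 in ethanol arrays, against 8.96, 9.08 and 9.33 in control arrays. Of the ethanol arrays 4 lay below the lowest control, at a difference of -0.19 (SE 0.08, unadjusted p = 0.0318, adjusted p = 0.845). Scap, which carries SREBP to the Golgi, was at 0.15 (SE 0.11, adjusted p = 0.872) with its other probe at -0.01. Insig2, the paralogue of Insig1, was at 0.10 (SE 0.07, adjusted p = 0.890) with its other probe at -0.02. Among other sterol-type targets 5 of 7 genes were tested, 4 above 0 and 1 below, median 0.04. Tmem97, a sterol-regulated membrane protein, was at 0.15 (SE 0.09, adjusted p = 0.859), the retinol dehydrogenase Rdh11 at 0.07 (SE 0.09), with its other probe at -0.08, and the acetoacetyl-CoA synthetase Aacs at 0.04 (SE 0.10).

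The fatty acid genes that SREBP-1 drives had 16 of 19 tested, 8 above 0 and 8 below, median 0.0009. Pnpla3, a lipid-droplet lipase and acyltransferase, had the smallest unadjusted p of the lists. It had 7.36, 7.58 and 8.11 in ethanol arrays, against 6.86, 7.13 and 7.42 in control arrays. Of the ethanol arrays 4 lay above the highest control. The difference was 0.49 (SE 0.13, unadjusted p = 0.00183, adjusted p = 0.845), with 0.30 on chip 1 and 0.67 on chip 2. Without ethanol 4, the highest array, it was 0.39 (unadjusted p = 0.00267, limma's adjusted p = 0.924). Mid1ip1, a partner of acetyl-CoA carboxylase, was at 0.11 (SE 0.12), or 0.03 without ethanol 3, and Slc25a1, the mitochondrial citrate carrier, at -0.09 (SE 0.07).

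The LXR target and sterol turnover genes had 13 of 18 tested, 6 above 0 and 7 below, median -0.0025. Cyp46a1 is the neuronal enzyme that hydroxylates cholesterol for its removal from the brain. It had 9.33, 9.48 and 9.69 in ethanol arrays, against 9.62, 9.80 and 10.36 in control arrays. Of the ethanol arrays 5 lay below the lowest control, and the means were 9.48 ± 0.13 in ethanol and 9.87 ± 0.26 in control arrays (SD, n = 6 each). The difference was -0.39 (SE 0.11, unadjusted p = 0.00383, limma's adjusted p = 0.845), with -0.26 on chip 1 and -0.52 on chip 2. Without control 6, the highest array, it was -0.29 with an unadjusted p of 0.00433 and an adjusted p of 0.926. Without ethanol 3 and ethanol 4 the Cyp46a1 difference was -0.32 (unadjusted p = 0.0256, limma's adjusted p = 0.891). Lipa, the lysosomal cholesteryl ester hydrolase, was at -0.30 (SE 0.25). Single arrays moved it in both directions: it was -0.48 without ethanol 3 (unadjusted p = 0.0356, limma's adjusted p = 0.751), -0.18 without ethanol 5, ethanol 6 or control 4, and -0.53 without ethanol 3 and ethanol 4. Nr1h3, which encodes LXR alpha, was at 0.15 (SE 0.17), and at 0.00 without control 3.

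**Figure D4:**
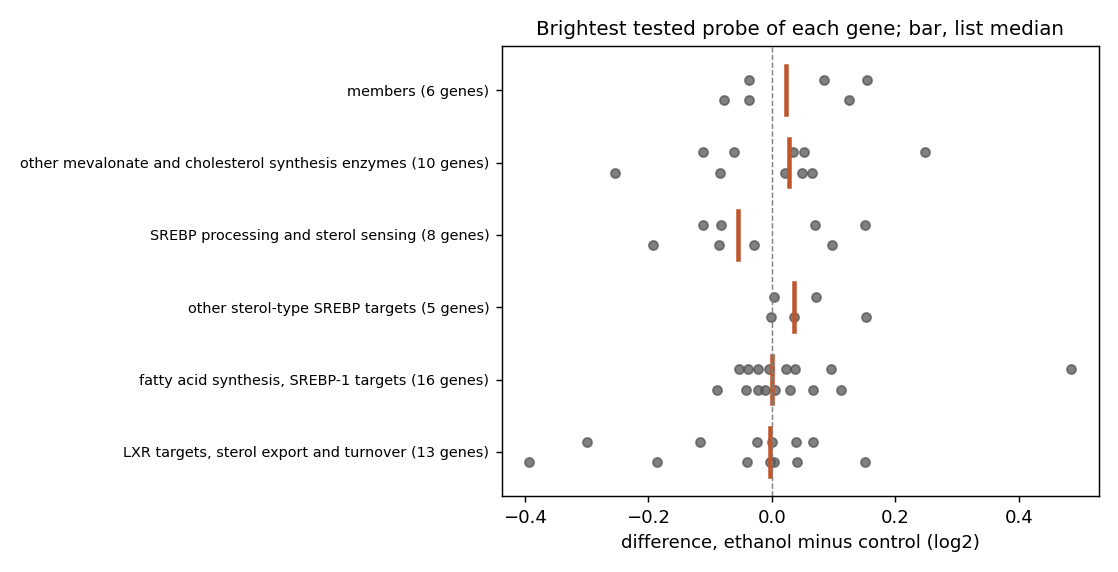
Difference between ethanol and control (x axis, log2 ethanol minus control) for the brightest tested probe of each gene, one row per list with the 6 cholesterol synthesis and SREBP target genes ("members") on top, grey points for genes and orange bars for list medians. All 6 medians lie between -0.06 and 0.04, and Pnpla3 (0.49) and Cyp46a1 (-0.39) are the outermost points.

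Marker levels are given beside these results because several cell types of the dissection make sterols. The mean log2 level of the 15 tested of 20 oligodendrocyte markers was 10.43, 11.00 and 11.81 (lowest, median, highest) in ethanol arrays, against 10.97, 11.18 and 11.80 in control arrays. Ethanol 3 and control 4 were high and ethanol 4 low, and the groups overlapped. Of these markers 2 lay above 0 and 13 below, with a median difference of -0.15 and 0 called. Astrocyte markers had 9.91, 10.09 and 10.60 in ethanol arrays and 10.00, 10.05 and 10.48 in control arrays. The defining markers Mbp, Mog and Aqp4 were detected on all 12 arrays. The mean level of the 6 genes themselves was 8.22, 8.32 and 8.41 in ethanol arrays and 8.17, 8.30 and 8.37 in control arrays.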

How the data were processed

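The authors deposited raw linear intensities of every probe on every array, each with a detection p-value in the next column, per the file headers. A second deposited table of normalized intensities served as an alternative, and 12 of 12 arrays matched their own column best. GenomeStudio 1.9.0 is named in the submitters' processing notes, with a background setting not given in the sources used here.

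For the values reported, the neqc function of limma 3.58.1 (R 4.3.3) removed background with the help of the detection p-values, added 16, applied quantile normalization and returned log2 intensities. The filter asked for detection at p under 0.05 on 6 or more arrays. Ethanol was compared with control, 6 arrays each, with lmFit and eBayes, two-sided, with Benjamini-Hochberg adjustment over 20296 probes and no covariates. Chips were compared with a group by chip interaction. The code was tested on simulated data. The median standard error of a difference was 0.113, and the number of arrays limits the precision.

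In the platform annotation 34885 probes had a single symbol, 18 had several and 10378 lacked one. The members and lists were chosen with earlier results of these data known. Named besides the members were the 3 genes of each list with the smallest unadjusted p, and the 10 most and 3 least alike genes by mean correlation. Alternatives covered background, offset, normalization, filters, chip, replicate number as a block, variance moderation, array weights and the arrays used.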

Additional observations from a re-analysis of the deposited data

Results flagged for a closer look

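Single arrays stood apart from the other 5 of their group in 9 of the 74 groups screened (10 tested probes, 15 named genes and 12 list levels, in ethanol and control). A screen of this kind marks about 1 in 20 groups by chance. Cyp51 was 8.89 in ethanol 6 and 8.46 to 8.59 in the other ethanol arrays. Dhcr7 was 7.58 in ethanol 4 and 6.84 to 7.09 in the others. Rdh11 was 9.63 in ethanol 6 and 9.86 to 10.00 in the others. Cyp46a1 was 10.36 in control 6 and 9.62 to 9.88 in the other control arrays.

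Among list levels, striatal projection neuron markers averaged 12.46 in ethanol 3 against 12.75 to 12.88 in the other ethanol arrays. Control 4 was marked in 4 lists. Its projection neuron markers averaged 12.68 (12.82 to 12.84 in the other control arrays), its oligodendrocyte markers 11.80 (10.97 to 11.20), its astrocyte markers 10.48 (10.00 to 10.18) and its LXR target and sterol turnover genes 9.35 (9.07 to 9.16). The LXR list was thus high on the control array whose glial markers were high, and the part of the glial markers in it was not tested.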

How the results depend on the processing

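Under each of 28 alternatives 0 probes, 0 member probes and 0 list genes passed limma's adjusted threshold. For the chip interaction this held under 13. Unadjusted p under 0.05 was met by 1175 probes in the reported analysis and by 1014 to 1425 under the alternatives that tested the same 20296 probes. It was met by 2420 of 45281 probes with no filter and by 2083 of 20685 on chip 2 alone. With the replicate block 0 probes passed and 1425 had an unadjusted p under 0.05. The block changed no call; for Tm7sf2 the unadjusted p was 0.00922 with it (adjusted 0.646) and 0.109 without it. Same-numbered arrays share a chip. Their deviations correlated above 0.1 for 3 of 6 numbers, or 4 of 6 with chip means removed, and 2 of 6 numbers matched best with their own, so the numbers were not taken as pairs.

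Of 278 member values 268 kept their direction. Other filters, blocks and variance moderation leave a probe's difference unchanged in this balanced design, so its direction could not turn under them. On chip 1 alone Fdps probe 1 (-0.03), Fdps probe 2 (-0.12), Dhcr7 (-0.02), Aacs (-0.09) and Lipa (0.18) turned. On chip 2 alone Sqle probe 1 (0.04), Sqle probe 2 (0.01), Insig1 probe 1 (-0.05), Idi1 (0.03), Cyp51 (0.13), Mid1ip1 (-0.05) and Nr1h3 (-0.13) turned. Without ethanol 3 and ethanol 4 Aacs was -0.02. Leaving out 1 array gave -0.13 to 0.03 for Idi1 and -0.01 to 0.09 for Aacs. For the chip interaction, median scaling gave -0.03 for Sqle probe 1 and -0.08 for Sqle probe 2, and leaving out 1 array gave -0.48 to 0.01 for Insig1 probe 3 and -0.08 to 0.33 for Idi1. The cause was not tested. The median of the SREBP processing list ranged from -0.07 to 0.04, that of the fatty acid list was 0.10 on chip 1 alone and that of the LXR list -0.13 on chip 2 alone. Idi1 failed the filters on all 12 arrays and on a detection p under 0.01, so it has no value there. Dim probes such as Idi1 and Fdps probe 2 lie near background, which limits what they can show.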
